A study of Rattus norvegicus with 6 samples.

Results

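Tiam1 and Dock4, which encode exchange factors of the small GTPase Rac1, were followed with 8 other genes of the same switch, Dock1, Vav2, Vav3, Rac1, Cdc42, Rhoa, Pak1 and Elmo1. All probe sets whose only gene symbol in the array annotation was 1 of these 10 were taken, which gave 21 of the 31099 on the array for 10 of the 14218 genes that it names. Tiam1 and Dock4 had been chosen by their measured values, a higher signal in NT3-treated ovaries in these same 6 arrays, so their NT3 against control values are a description and carry no test. Ovaries of 4-day-old female Sprague-Dawley rats were kept as whole organs for 48 h on floating filters, 3 samples with 50 ng/ml recombinant human NT3 and 3 controls with no factor. Both groups had the same medium with albumin, albumax, ascorbic acid, transferrin and antibiotics. Each sample pooled 2 to 3 ovaries, the titles call the samples biological replicates, and the labels do not say if these were different animals or litters. Every error below therefore speaks only for these samples. SDs are their spread, while each SE and interval comes from limma, which also draws on the variance of other probe sets.

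Small GTPases such as Rac1, Cdc42 and Rhoa are molecular switches that are active when bound to GTP and act on the actin cytoskeleton, cell adhesion and cell polarity. Guanine nucleotide exchange factors load them with GTP, GTPase-activating proteins turn them off, and effectors such as the Pak kinases read the active form. Tiam1 belongs to the Dbl family of exchange factors and in neurons and Schwann cells has been linked to Rac1 activation below neurotrophin receptors. Dock4 and Dock1 belong to the other family, the Dock proteins, which work with the scaffold Elmo1. The neurotrophin NT3 is encoded by Ntf3 and its main receptor is the kinase Ntrk3. The study concerned the passage of primordial follicles to the primary stage.

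The leading probe sets of Tiam1 and Dock4 had 1.37-fold and 1.57-fold higher geometric mean signals with NT3, and Dock1 had a 1.15-fold higher one. Rac1 and Cdc42, the GTPases themselves, had overlapping groups on all 5 of their probe sets. Nothing is read from that count, since groups did not overlap in only 5.83% of all tested probe sets. The direction of both Rhoa probe sets depended on whether control replicate 2 was included. No member passed the test over all probe sets.

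Values are MAS5 signals, a scaled brightness per probe set that gives no transcript number. A signal is set only against the same probe set on other arrays, and in whole ovaries fewer cells of a type and less RNA per cell cannot be told apart. The arrays had median signals of 69.0 to 74.4 with NT3 and 71.1 to 75.0 in control. The 3′ to 5′ signal ratio of beta-actin, which rises when RNA is degraded, was 2.78 to 2.91 on the NT3 arrays, 6.83 on control replicate 2, and 2.42 and 2.60 on control replicates 1 and 3. The ratio of Gapdh was 1.21 to 1.25 with NT3, 1.70 on control replicate 2, and 1.09 and 1.14 on the other controls. Control replicate 2 therefore stood apart, and log2 fold changes that it moved by over 1.5 times are given with and without it. Granulosa markers had 8 of 8 above the signal filter, and oocyte markers had all 7 annotated of 10 listed above it. This does not test the ovary label, since 10600 of the 14218 named genes had a probe set above the filter. Epithelium markers had 7 of 7 above it, and leukocyte markers 10 of 11 annotated.

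Of the 21 probe sets, 16 had a mean log2 signal over the 6 arrays at or above the 40th percentile of all probe sets, a signal of 41.3, and 5 lay below it. The 5 were 3 of the 4 probe sets of Tiam1 and 2 of the 4 of Vav2, of which 1 just missed the filter at a geometric mean of 40.7. By limma, 0 of the 16 had an adjusted p under 0.05, as did 0% of the 18625 probe sets tested. At an unadjusted p under 0.05 limma called 240 of the 18625 probe sets, or 1.29%. Every NT3 array lay above every control array in 3 of the 16, the leading probe sets of Tiam1, Dock4 and Dock1, against 2.62% of all tested probe sets. Nothing is read from this count, since Tiam1 and Dock4 were chosen by their higher signal with NT3. In no member did every NT3 array lie below every control array, against 3.21% of tested probe sets, so that separation in either direction was seen in 3 of the 16, against 5.83%.

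The Tiam1 probe set with the highest signal, 1392980_at, had 115.2, 126.3 and 106.9 in NT3 replicates 1 to 3, against 80.8, 88.6 and 84.5 in control replicates 1 to 3. The groups did not overlap, and the replicate numbered 2 was the highest of its group on both sides. The means were 116 ± 9.73 with NT3 and 84.6 ± 3.90 in control (SD, n = 3 each), a log2 fold change of 0.45 ± 0.17 (SE) or 1.37-fold. Within the same-numbered arrays the log2 differences were 0.51, 0.51 and 0.34.

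The other 3 probe sets of Tiam1 lay below the filter and had overlapping groups. Probe set 1374257_at had 28.5, 52.1 and 25.0 with NT3, against 12.8, 28.5 and 14.7 in control. Its groups overlapped through control replicate 2, all 3 same-numbered differences were above 0, and the log2 fold change was 0.93 ± 0.47, or 1.28 ± 0.46 without control replicate 2. Probe set 1381167_at had 26.7, 36.2 and 3.9 with NT3, against 24.4, 19.4 and 20.0 in control. NT3 replicate 3 was the lowest array there, and the log2 fold change of -0.44 ± 0.77 was 0.56 without it. Probe set 1377591_at had 1.5, 8.7 and 2.5 with NT3, against 22.3, 5.0 and 0.9 in control, with a log2 fold change of -0.54 ± 1.22. Its sign turned without NT3 replicate 1 or without control replicate 1, and its within-group spread on the log2 scale was 1.88, against 0.097 for 1392980_at. Of the 4 Tiam1 probe sets, 2 thus had a log2 fold change above 0 and 2 below 0.

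Dock4 was measured by 1 probe set, 1397226_at, with 63.1, 70.3 and 62.9 in NT3 replicates 1 to 3 and 32.7, 48.5 and 45.8 in control replicates 1 to 3. All NT3 arrays lay above all control arrays, and control replicate 1 was the lowest of the 6. The means were 65.4 ± 4.22 with NT3 and 42.3 ± 8.45 in control (SD, n = 3 each), a log2 fold change of 0.65 ± 0.23 or 1.57-fold. The control mean lay close to the filter of 41.3. Without control replicate 1 the log2 fold change was 0.47, the lowest with any 1 array left out, and without control replicate 2 it was 0.76.

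Dock1, the founding Dock exchange factor for Rac1, had 451.2, 454.6 and 422.2 with NT3, against 410.7, 373.6 and 370.0 in control. The groups did not overlap, but the lowest NT3 array and control replicate 1 were close. The means were 443 ± 17.8 with NT3 and 385 ± 22.5 in control (SD, n = 3 each), a log2 fold change of 0.20 ± 0.11 or 1.15-fold, with a 95% limma interval from 0.97-fold to 1.37-fold. Elmo1, the scaffold of Dock1 and Dock4, had 49.7, 55.8 and 53.3 with NT3, against 55.1, 59.8 and 63.8 in control. Its NT3 arrays were mostly lower, the groups overlapped at NT3 replicate 2 and control replicate 1, and the log2 fold change was -0.17 ± 0.20.

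**Figure D1:**
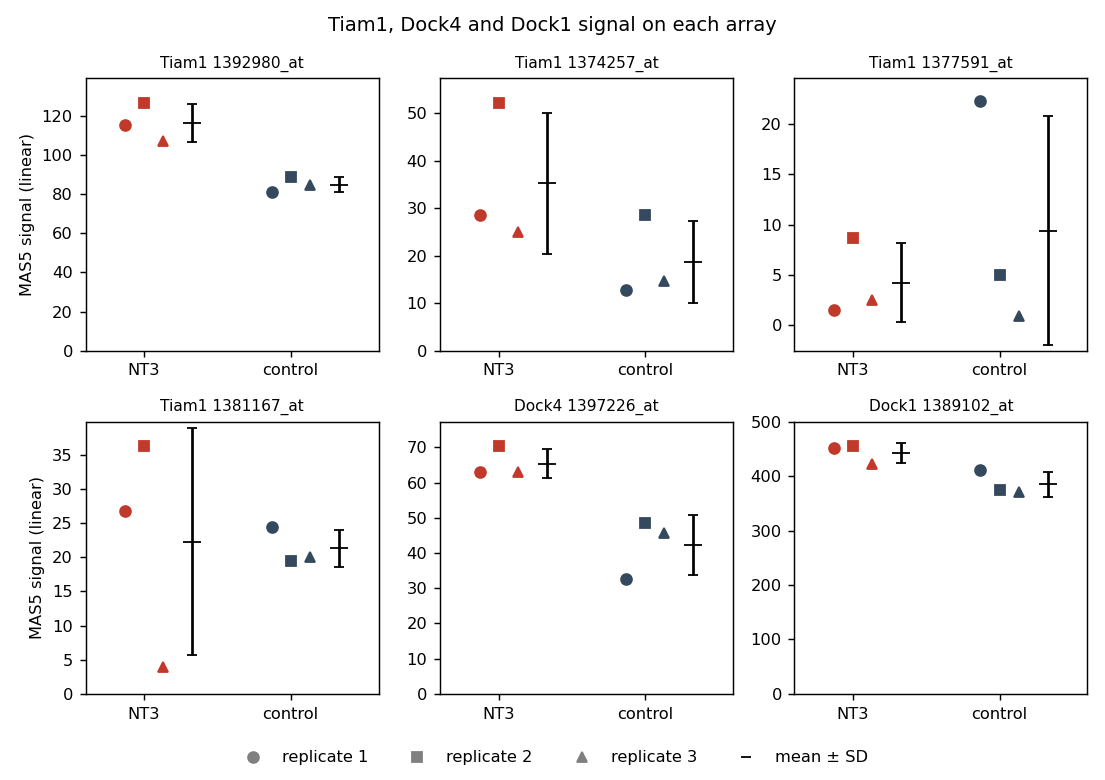
MAS5 signal (linear axis) of the 4 Tiam1 probe sets and of Dock4 and Dock1, with the 3 NT3 arrays left and the 3 control arrays right in each panel, a symbol for each replicate number, and a bar for mean ± SD. All NT3 points lie above all control points for Tiam1 1392980_at, Dock4 and Dock1, and the groups overlap in the other 3 Tiam1 panels.

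Promoters of Tiam1 and Dock1, both exchange factor genes whose leading probe set had all NT3 arrays above the control arrays, are shown to give the sequence before the start of these genes. Each window runs from 250 bases before to 50 bases from an annotated transcript start, 5′ to 3′ along the gene, from RefSeq on GRCr8. Capitals in Tiam1 mark TGANTCA, a loose form of the AP-1 site that takes any base at N. In Dock1 they mark GC boxes, GGGCGG or its reverse complement.
Tiam1, chr11:42646033-42646332, minus strand: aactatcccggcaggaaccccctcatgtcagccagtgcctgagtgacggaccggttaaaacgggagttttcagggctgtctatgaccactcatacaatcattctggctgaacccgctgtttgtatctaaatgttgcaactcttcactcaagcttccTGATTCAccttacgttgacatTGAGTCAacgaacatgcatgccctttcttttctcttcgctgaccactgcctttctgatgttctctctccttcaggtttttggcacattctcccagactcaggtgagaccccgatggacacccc
Dock1, chr1:198896795-198897094, plus strand: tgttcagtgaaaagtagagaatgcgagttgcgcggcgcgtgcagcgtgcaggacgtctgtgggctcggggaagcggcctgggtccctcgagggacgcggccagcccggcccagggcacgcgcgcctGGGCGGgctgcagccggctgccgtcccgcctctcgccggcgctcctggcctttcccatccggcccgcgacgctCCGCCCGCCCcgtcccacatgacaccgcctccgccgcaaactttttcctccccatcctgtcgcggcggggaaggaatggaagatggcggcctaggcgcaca
The start used for Tiam1 lies within the annotated span of the gene, so other starts of Tiam1 are not shown.

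The Tiam1 window held these loose AP-1 letters as tgattca beginning at -94 and as tgagtca beginning at -73 from the start, which differ at N. AP-1 letters were present in 7.3% of the 33469 RefSeq promoter windows of the same length. The Dock1 window held GC boxes at -124, -51 and -47, of which the last 2 overlap, and GC boxes were present in 33.1% of all windows. The windows of Vav2, Vav3, Cdc42, Pak1 and Elmo1 held GC boxes too. Both strands were searched for these motifs and for CRE (TGACGTCA), the Egr site (GCGNGGGCG) and the letters TATAAA, and none of those 3 was in the windows of Tiam1 or Dock1. CRE was present in 1.8% of all windows, in Cdc42 at -59 and in Pak1 at -205, and the Egr site in 5.0% and in Elmo1 at -204. The letters TATAAA were present in 14.2% of all windows. The GC content was 49.7% in the Tiam1 window and 71.3% in Dock1, against a median of 51.7% over all windows.

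Vav2 and Vav3 encode Dbl family exchange factors that are switched on by tyrosine phosphorylation. The Vav2 probe set with the highest signal, 1384169_a_at, had 102.7, 92.4 and 95.8 with NT3, against 108.4, 131.0 and 94.8 in control. Control replicate 2 was the highest array and the groups overlapped, with a log2 fold change of -0.19 ± 0.18, or -0.065 ± 0.17 without that array. The second Vav2 probe set above the filter, 1393349_x_at, had 93.1, 77.2 and 106.6 with NT3, against 99.8, 131.3 and 87.0 in control. The x in its name marks probes that may bind other transcripts, and its log2 fold change was -0.19 ± 0.22, or -0.026 ± 0.20 without control replicate 2.

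The Vav2 probe sets below the filter, 1384170_at and 1384171_x_at, had signals of 3.4 to 12.1 and 32.6 to 46.0 with NT3, against 4.0 to 20.3 and 29.5 to 58.9 in control. Their groups overlapped as well, with log2 fold changes of -0.69 ± 0.80 and -0.25 ± 0.34, or -0.40 and -0.045 without control replicate 2. Vav3 had 101.4, 70.4 and 88.0 with NT3, against 86.6, 55.1 and 82.7 in control. In Vav3 the replicates numbered 2 were the lowest of both groups, and all 3 same-numbered differences were above 0, at 0.23, 0.35 and 0.090. The log2 fold change of Vav3 was 0.22 ± 0.24 over the 6 arrays, and 0.017 ± 0.21 when control replicate 2 was left out.

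Rac1 encodes the GTPase that Tiam1, Dock1 and Dock4 load. Its probe set 1388332_at had 2004, 2242 and 2011 with NT3, against 1875, 2276 and 2041 in control. The groups overlapped throughout, with a log2 fold change of 0.018 ± 0.11, or 0.090 without control replicate 2, and a 95% limma interval from 0.86-fold to 1.20-fold over all arrays. Its probe set 1372513_at had 1512, 1519 and 1513 with NT3, against 1504, 1053 and 1571 in control. Control replicate 2 alone was low there, at 0.685 of the mean of the other controls, and high on 1388332_at, at 1.16 of it. The log2 fold change of 1372513_at was 0.16 ± 0.15 over the 6 arrays, and -0.021 ± 0.082 when control replicate 2 was left out.

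Cdc42 encodes the GTPase of filopodia and cell polarity. Its probe set 1370825_a_at had 6120, 6474 and 5394 with NT3, against 5161, 6136 and 5456 in control, with overlapping groups and a log2 fold change of 0.10 ± 0.11, or 0.17 without control replicate 2. Probe set 1367475_at had 3020, 3296 and 2718 with NT3, against 2955, 3123 and 2835 in control, and a log2 fold change of 0.016 ± 0.10, or 0.053 without control replicate 2. On both the replicate numbered 2 was the highest of its group. Probe set 1391127_at had 212.3, 180.5 and 226.4 with NT3, against 242.4, 186.8 and 235.0 in control. There the replicates numbered 2 were the lowest of both groups, and the log2 fold change was -0.098 ± 0.16. The 95% limma intervals of the 3 probe sets ran from 0.73-fold at the lowest to 1.27-fold at the highest.

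Rhoa encodes the GTPase that drives contraction and stress fibres and often acts against Rac1. Its probe set 1399027_at had 1262, 1255 and 1215 with NT3, against 1482, 819.9 and 1490 in control. The NT3 arrays lay close together, below control replicates 1 and 3 and above control replicate 2. Its probe set 1370130_at had 732.4, 837.6 and 734.2 with NT3, against 1005, 372.9 and 920.5 in control. There too the NT3 arrays lay between control replicate 2 and the other controls. Control replicate 2 was at 0.552 and 0.387 of the mean of the other controls on the 2 probe sets.

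With all arrays the log2 fold changes of Rhoa were 0.029 ± 0.21 and 0.13 ± 0.32, and without control replicate 2 they were -0.26 ± 0.083 and -0.33 ± 0.10. In that comparison of 3 NT3 arrays with 2 controls, every NT3 array lay below both controls in 3 of the 16 members above the filter, both Rhoa probe sets and Cdc42 1391127_at (log2 fold change -0.22), against 9.65% of tested probe sets. Every NT3 array lay above both controls in 3 of the 16, Tiam1 1392980_at, Dock4 and Dock1, against 8.81%. Nothing is read from that count either, since Tiam1 and Dock4 were chosen by their higher signal with NT3. Without control replicate 2 the 3′ to 5′ ratios also went with the groups. All 3 NT3 arrays had higher beta-actin and Gapdh ratios than control replicates 1 and 3. The part of these ratios in the values of any member, Tiam1, Dock4 and Dock1 included, was not tested.

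**Figure D2:**
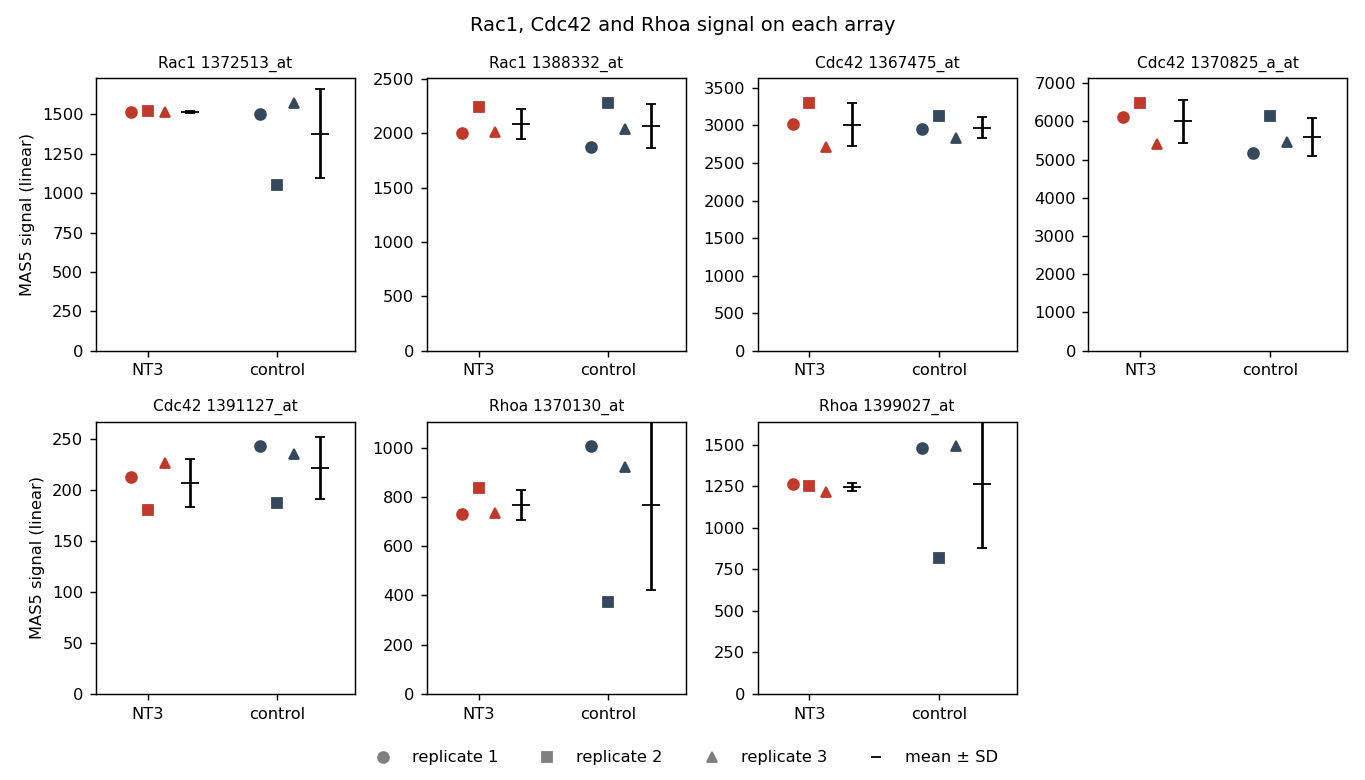
MAS5 signal (linear axis) of the 7 probe sets of Rac1, Cdc42 and Rhoa, with NT3 arrays left and control arrays right, a symbol for each replicate number, and a bar for mean ± SD. Control replicate 2 (square) is the lowest point on both Rhoa probe sets and on Rac1 1372513_at, and the groups overlap in all 7 panels.

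Pak1 encodes a kinase that active Rac1 and Cdc42 switch on. Its probe set 1389093_at had 514.1, 535.4 and 481.1 with NT3, against 561.8, 633.2 and 526.1 in control. Each NT3 array was below the control of its own number, the groups overlapped at NT3 replicate 2 and control replicate 3, and the log2 fold change was -0.17 ± 0.11, or -0.093 without control replicate 2. Its probe set 1387377_a_at had 118.9, 113.4 and 103.8 with NT3, against 110.7, 86.4 and 98.4 in control. Each NT3 array was above the control of its own number there, with a log2 fold change of 0.19 ± 0.17, or 0.10 without control replicate 2. The 2 probe sets of Pak1 therefore went opposite ways. Of the 6 genes with several probe sets, Tiam1, Cdc42 and Pak1 had probe sets of both signs.

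**Figure D3:**
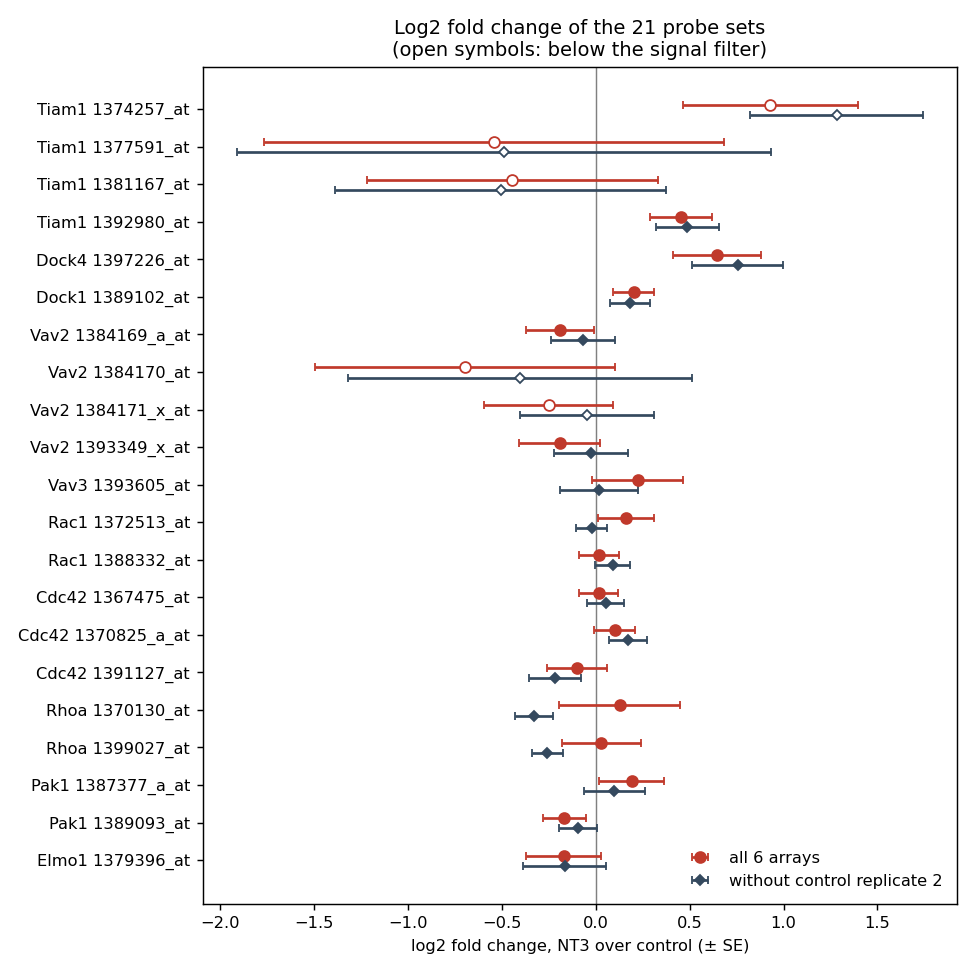
Log2 fold change of NT3 over control with its SE for each of the 21 probe sets, with all 6 arrays (circles) and without control replicate 2 (diamonds); open symbols lie below the signal filter. The Rhoa probe sets move from 0.029 and 0.13 to -0.26 and -0.33 when that array is left out, while Tiam1 1392980_at, at 0.45 and 0.49, and Dock4, at 0.65 and 0.76, change little.

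The genes that load and unload these switches were described through 2 lists with 91 genes, of which 79 were annotated on the array and 66 had a probe set above the filter. None of the 66 passed limma's test in either direction (0 higher and 0 lower at an adjusted p under 0.05), and at an unadjusted p under 0.05 there were 2, against 1.29% of all tested probe sets. These were Tiam1 and Dock4, which had been chosen by their higher signal with NT3. Of the 66 leading probe sets, 36 were higher and 30 lower with NT3, where 47.4% of the 10600 genes tested were higher with a median of -0.0075. NT3 arrays lay above all controls in 4 of the 66, Tiam1, Dock4, Dock1 and Chn1, against 2.62% of all tested probe sets, and below all controls in 0, against 3.21%. Nothing is read from these counts, which hold the genes so chosen.

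The list of Rac exchange factors and their adaptors held Dock1 to Dock11 and Mcf2l, whether or not Rac1 is their main target. It had 19 of 30 genes higher and a median log2 fold change of 0.047. The 3 whose NT3 arrays lay above all controls were Tiam1, Dock4 and Dock1. Without control replicate 2 the counts were 14 higher and 16 lower and the median was -0.006. Besides the members, Trio, a large exchange factor of axon guidance, had 0.12 ± 0.096 and Spata13 0.19 ± 0.17. Mcf2l had -0.35 ± 0.17 and Farp2 -0.15 ± 0.15. Without control replicate 2, Spata13 had 0.096, Mcf2l -0.20 and Farp2 -0.088. None of these 4 genes passed the test.

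GTPase-activating proteins and GDIs, which hold the switch off, had 17 of 36 genes higher and a median of -0.022, or 22 of 36 and 0.03 without control replicate 2. Chn1, whose product chimaerin turns Rac1 off, had 97.2, 93.7 and 88.3 with NT3, against 58.5, 85.6 and 70.0 in control. All NT3 arrays lay above the controls, with a log2 fold change of 0.40 ± 0.20, and the other probe set of Chn1 had the other sign. Arhgap26, Arhgap10 and Arhgap23 had 0.27, -0.31 and -0.17, and each also had 1 probe set of the other sign. Without control replicate 2, Arhgap10 had -0.15 and Arhgap23 -0.11.

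**Figure D4:**
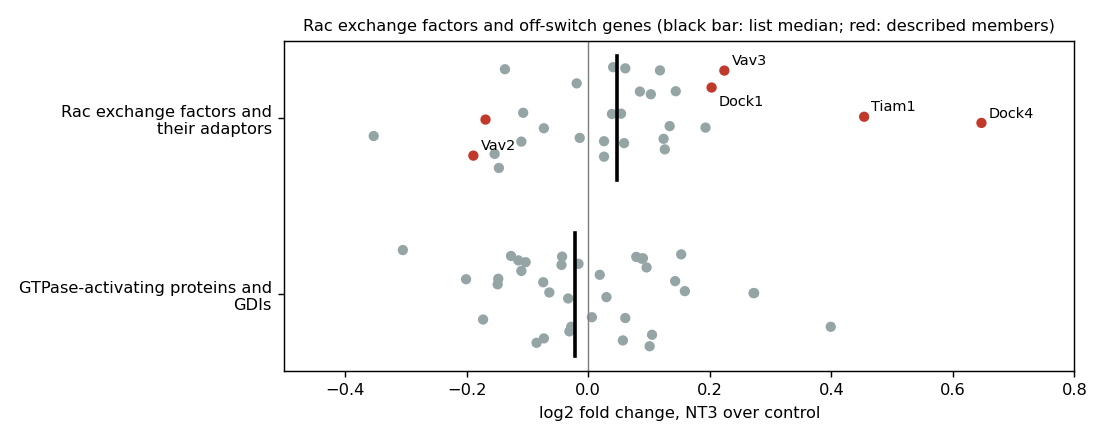
Log2 fold change of NT3 over control for the leading probe set of each of the 66 genes of the 2 lists, 1 row per list, with a black bar at the list median and the described members in red. The list medians lie at 0.047 and -0.022, and Tiam1 and Dock4 lie farthest to the right.

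The genes whose signal over the 6 arrays was most like that of Tiam1 1392980_at, among 14182 named probe sets, were Sarm1 (Pearson r = 0.990), Susd6 (0.973), Ntan1 (0.969), Tnc (0.967) and Trps1 (0.966). For Dock4 they were Baiap2l1 (0.978), Zfhx3 (0.973), Cinp (0.966), Gigyf2 (0.955) and Gla (0.954). These are the highest of many values over 6 arrays and are given as a description only. Sarm1 had 97.0, 106.8 and 87.6 with NT3, against 73.6, 78.0 and 74.4 in control with the arrays in the same order within each group as for Tiam1.

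Markers of other cells of a whole ovary were set beside the higher Tiam1 and Dock4 signals. Leukocyte markers had summed signals of 4095 to 4715 with NT3 and 3903 to 4332 in control over the 11 annotated of 12 listed genes, of which 10 passed the filter and 8 of those were higher. NT3 replicate 2, the highest array for Tiam1 1392980_at and Dock4, was also the highest for the leukocyte sums. Among the controls, Tiam1 1392980_at and Dock4 were highest in replicate 2, but the leukocyte sums in replicate 3. The epithelium sums were highest in replicate 2 of both groups, at 11341 with NT3 and 11377 in control. Control replicate 3, at 4332, lay above NT3 replicates 1 and 3, so the leukocyte sums overlapped between the groups. No leukocyte marker was at 0. The leukocyte exchange factor gene Vav1 lay below the filter at 27.3 to 41.8 with NT3 and 25.0 to 50.9 in control. Neuron and Schwann markers had summed signals of 297.8 to 311.0 with NT3 and 282.9 to 293.9 in control over 6 annotated of 8 listed genes. Of these, Snap25, Syt1, Tubb3 and Stmn2 were below the filter on average, with Snap25 at 1.7 to 7.3 with NT3 and 2.2 to 3.9 in control, and none was at 0. The 2 markers above the filter made up most of each sum. Gap43 had 124.7, 96.0 and 87.1 with NT3, against 78.2, 92.5 and 86.0 in control, and S100b had 122.4, 151.7 and 141.5 with NT3, against 151.8, 125.7 and 150.1 in control. Gap43 and S100b each overlapped between the groups and went opposite ways, with log2 fold changes of 0.25 and -0.041.

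Endothelial markers had summed signals of 1843 to 2115 with NT3 and 1928 to 2182 in control. Of the 6 above the filter 0 were higher, against 47.4% of all genes tested. Smooth muscle markers had 582.8 to 889.4 with NT3 and 602.5 to 942.6 in control, and epithelium markers 7600 to 11341 with NT3 and 7137 to 11377 in control. Granulosa markers had 5973 to 6536 with NT3 and 5995 to 6982 in control, and oocyte markers 9941 to 12491 with NT3 and 11621 to 12402 in control. Of those above the filter, 3 of 8 granulosa and 3 of 7 oocyte markers were higher. So were 2 of 5 smooth muscle and 3 of 7 epithelium markers. The neuron and Schwann list was the only one of these 7 whose sums did not overlap between NT3 and control, while its 2 markers above the filter each overlapped. No member of the 7 lists passed limma's test, and the part of cell content in the Tiam1 and Dock4 values was not tested.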

How the data were processed

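RNA of 6 whole ovary cultures was measured on Affymetrix arrays with biotin-labelled cRNA, per the labels' protocols. The deposited values are linear intensities, a MAS5 signal for each probe set per the submitters' processing notes, and with 2% trimmed from either end they average 210.1 on all 6 arrays. After 31099 probe sets were reduced to 31042 by removing controls, signals were taken to log2 with a floor of 0.1, which touched 5 probe sets. A filter at the 40th percentile of mean log2 signal, 5.37, kept 18625. Differences of NT3 from control were fitted with limma 3.58.1 under R 4.3.3 (lmFit, then eBayes with a trend on signal, 2-sided), Benjamini-Hochberg adjusted over all kept probe sets, and the fit was tested on simulated data. Members below the filter were fitted in the same model without it. The leading probe set of a gene is the one with the highest mean log2 signal.

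Members and lists were chosen with earlier results of these data known. Besides the members, the 2 genes of each list with the lowest p in each direction were named, and for Tiam1 and Dock4 the 5 genes of highest Pearson correlation. Dock1, Sarm1, Vav1 and Snap25 were described further after their values were seen. All 10 genes were found in the RefSeq table of GRCr8 by Entrez identifier, and the promoter windows of 8 were searched. Of the lists and windows looked at, 3 lists and 1 window are not reported here. Equal replicate numbers were checked for pairing. Deviations from the group means correlated at 0.230, 0.247 and 0.222 for pairs 1, 2 and 3, and at -0.246 to 0.029 for unlike numbers. Same-numbered differences are therefore given, although no label calls the numbers pairs. Deviations of 3 arrays per group are weak ground for pairing. The main fit, with its SEs, intervals and calls, did not use the pairs, and the replicate block was run as an alternative. Alternatives changed the filter (none, or the 60th percentile), the scaling (median centring or quantile normalization), the offset (16), the variance model (no trend, array weights, replicate block) and the probe sets (their mean per gene), or left out each array. The number of arrays limits the precision.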

Additional observations from a re-analysis of the deposited data

How the results depend on the processing

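Over 16 alternatives the log2 fold change of Tiam1 1392980_at ran from 0.39 to 0.51 and that of Dock4 from 0.47 to 0.76. Not all 16 could move it, since the filters, the replicate block over all arrays and the trend leave a log2 fold change as it is. Both settings chosen after seeing the data also give equal log2 fold changes. Tiam1 1392980_at and Dock4 lie below the 60th percentile, and their values there are those with no filter. Of the other 19 probe sets, 10 kept their sign under all 16 alternatives, and 9 turned under 1 or more, 8 with a log2 fold change smaller than its SE, and Rac1 1372513_at at 0.16 ± 0.15. Both Rhoa probe sets turned with array weights, without control replicate 2, and in both settings chosen after seeing the data: the replicate block with control replicate 2 left out, and both arrays numbered 2 left out. The count of probe sets with an adjusted limma p under 0.05 was 0 under every alternative but 1 and was 4 with the replicate block and control replicate 2 left out, of which 0 were members. No gene of the 2 lists passed under any alternative. The count at an unadjusted p under 0.05 was 240, against 752 with no filter, 123 at the 60th percentile, 401 with the replicate block, 377 with no trend, 585 with array weights, 176 to 656 with 1 array left out (656 without control replicate 2, 420 without control replicate 3), 962 with the block and control replicate 2 left out, and 514 with both arrays numbered 2 left out. The count of probe sets whose groups did not overlap was 1085, against 2222 with no filter, 643 at the 60th percentile, 2250 to 3438 with 1 array left out and 5333 with both arrays numbered 2 left out, where fewer arrays make separation easier. The replicate block changed no other call. Low signals limit the 5 probe sets below the filter.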
